A study of Mus musculus with 6 samples.

Results

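Glycolysis splits glucose into pyruvate and gives contracting muscle fast ATP without oxygen. Differentiating muscle cells exchange general forms of several of its enzymes for muscle forms, such as the phosphoglycerate mutase PGAM2 and the phosphofructokinase PFKM. The genes described here are PGAM2, the phosphoglycerate kinase PGK1 and those of their pathway partners ENO3, ALDOA, GAPDH, TPI1, PKM, LDHA, PFKM and PYGM for which the array had a named spot. Members were taken by gene symbol; the list of symbols was drawn up with earlier results of these data known. Of the 10 genes looked for, 7 were found among 1521 named genes, and ENO3, LDHA and PYGM were not analysed here. They were read by 15 probes in 30 spots: PGAM2 and TPI1 had 2 probes each, ALDOA and GAPDH 4 each, and PGK1, PKM and PFKM 1 each.

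The study compared RNA of C2C12 control cells, a mouse C3H myoblast line from muscle, with RNA of the C2C12 clone MyoD(-)cl.A8 at days 1, 3 and 6 of differentiation. MyoD drives myoblasts into muscle differentiation by switching on muscle genes. The clone was transfected with the mouse MyoD transcript in antisense orientation in the pcDNA 3.0 expression vector and was selected with G-418, and it is a single clone. The labels do not say whether the control cells carried a vector. The listed media were DMEM with fetal bovine serum for growth and DMEM with horse serum for differentiation, during which C2C12 cells fuse into myotubes. Each day had 2 two-colour arrays with the dyes exchanged: the clone was labelled with Cy5 on replicate A and with Cy3 on replicate B.

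Values are scores of clone against control for each spot. The sources used here state neither their scale and centring nor their direction, so no fold changes are given. Positive scores are taken as higher in the clone. That direction is likely rather than settled: it rests on the words test (clone) and reference (control) in the labels. Scores of the 2 spots of a probe were averaged, then those of a gene's probes, and each of the 6 arrays was centred on its median over 2466 features, which were 1521 genes and 945 probes without a gene name. The SD of the features lay between 1.07 and 1.28 score units on the arrays, and the 2 arrays of a day correlated across features at 0.16 to 0.21. A day's arrays hold the same 2 kinds of cells with crossed dyes and count as 1 replicate, so n = 3 days, and a single day has no replicate. Separate cultures are not named in the labels, and p-values measure only the spread among these arrays and days, part or all of which may be technical. The probes were made for human genes and the RNA came from mouse. Whether a probe also bound RNA of a close relative or a processed copy of its gene, such as PGAM1 RNA on a PGAM2 probe, was not tested. A lower score can come from fewer cells of a type or from less RNA in each cell, which cannot be told apart in these samples. A ratio of 2 samples gives no level, so muscle identity could not be read from the presence of markers. Of 12 muscle genes, 6 were measured, with a median score over the days of 0.14. Among them MYOD1, the silenced gene, stood at 0.02 on day 1, 0.04 on day 3 and 0.38 on day 6. Its replicates A and B had opposite signs on day 1 (0.41 and -0.36) and day 3 (1.11 and -1.03). Antisense transcripts of the construct share this gene's sequence, so its score is no check of the silencing.

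On scores centred by array and averaged over a gene's probes, 0 of the 7 members passed the test across all features in any of the comparisons. The PGAM2 difference between days 1 and 6 passed under 2 other settings: for 1 of its 2 probes when probes were tested singly, and for the gene when neighbouring probes were subtracted. PGAM2 was about 2 units lower in the clone on day 1 and about 2 units higher on day 6. PGK1 was lower in the clone on every array of every day. ALDOA and GAPDH both stood low on day 3 and high on day 6, PFKM and TPI1 were highest on day 6, and PKM differed between the arrays of a day. Of the 7 members, 0 passed limma's test of the mean over the 3 days at an adjusted p of 0.05, where 0.365% of all features passed. At an unadjusted p of 0.05 there was 1 member, PGK1, against 6.65% of all features. Their median over the days was -0.29, beside 0.0028 for all features. By day, the median of the 7 was -0.42 on day 1, -0.54 on day 3 and 1.21 on day 6, beside 0.018, 0.00042 and 0.0034 for all features.

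**Figure D1:**
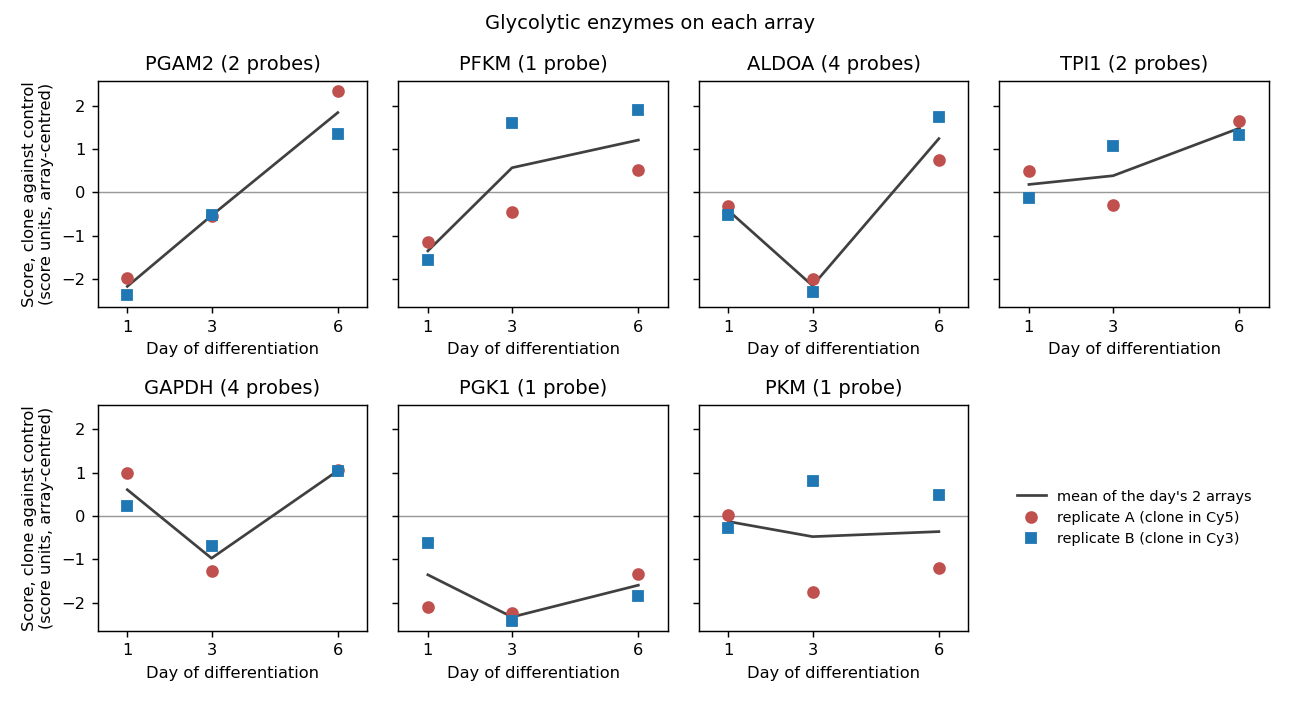
Score of clone against control (score units, centred on each array's median) for each of the 7 enzymes at days 1, 3 and 6 of differentiation. Circles are replicate A, squares replicate B and lines the mean of a day's 2 arrays. PGAM2 goes from -2.17 on day 1 to 1.84 on day 6, while both PGK1 arrays of each day lie below 0.

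PGAM2 (Entrez Gene 5224) encodes the muscle form of phosphoglycerate mutase, which moves the phosphate of 3-phosphoglycerate to give 2-phosphoglycerate. MyoD binds E-boxes, DNA sites with the letters CANNTG. To show how many such letters lie next to the start of the member with the largest score difference between days and of its neighbour in the pathway, the 250 bases before the start of mouse Pgam2 and Pgk1 are printed here from RefSeq (build GRCm38.p6). They read 5′ to 3′ along the gene, with each CANNTG in capitals. Pgam2 lies at chr11:5803797-5804046 on the minus strand and Pgk1 at chrX:106186850-106187099 on the plus strand.
Pgam2: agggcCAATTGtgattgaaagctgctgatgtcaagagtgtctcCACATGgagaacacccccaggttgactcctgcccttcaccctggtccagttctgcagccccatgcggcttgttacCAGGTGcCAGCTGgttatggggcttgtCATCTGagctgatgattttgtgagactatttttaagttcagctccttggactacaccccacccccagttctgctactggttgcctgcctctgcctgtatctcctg
Pgk1: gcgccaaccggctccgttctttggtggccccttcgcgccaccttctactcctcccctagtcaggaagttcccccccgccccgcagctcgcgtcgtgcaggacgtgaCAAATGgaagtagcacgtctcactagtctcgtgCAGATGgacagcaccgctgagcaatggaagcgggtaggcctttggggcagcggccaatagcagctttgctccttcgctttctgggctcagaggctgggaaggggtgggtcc

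The Pgam2 window holds 5 matches to CANNTG, which reads the same on both strands, and the Pgk1 window holds 2. Of 32851 promoter windows of this length in the table, 66.2% hold at least 1 match, 31.8% at least 2 and 1.15% at least 5. One of the Pgam2 matches is CAGCTG, a form of CANNTG that starts 125 bases before the gene and is in 13% of all windows. The next upstream match, CAGGTG, starts at 132 bases. Pgam2 also has a match to the consensus of MEF2, a second family of muscle transcription factors, which starts 80 bases before the gene on either strand; 2.92% of all windows have one. Windows of the other members, matched by symbol, hold fewer CANNTG matches than the Pgam2 window. There are 0 for Gapdh, 2 for Tpi1 and 1 for each of 3 Aldoa starts. Windows of 2 Pkm starts hold 1 and 0, and those of 4 Pfkm starts between 0 and 3 matches. These are matches of letters, and binding was not measured.

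On day 1 PGAM2 scored -1.98 on replicate A and -2.37 on replicate B. On day 3 the scores were -0.55 and -0.53, and on day 6 they were 2.33 and 1.35. The arrays of a day never overlapped with those of another day, and the order was day 1, day 3, day 6 from low to high. The score on day 6 minus that on day 1 was 4.01 ± 0.89 (SE of the limma fit, 95% interval 2.12 to 5.90), and all 4 differences between a day 6 and a day 1 array lay between 3.32 and 4.70. This was rank 2461 of 2466 features from the lowest, but limma's adjusted p was 0.0904 against the spread between dye-swapped arrays. Of the members, 0 passed for this change, where 0.365% of all features did, and at an unadjusted p of 0.05 there were 2, PGAM2 and PFKM, against 8.27%. Neighbouring days differed less. The step from day 1 to day 3 was 1.63 (95% interval -0.26 to 3.52) and that from day 3 to day 6 was 2.38 (0.49 to 4.27), with limma's adjusted p of 0.70 and 0.457. Over the days PGAM2 averaged -0.29 ± 2.02 (SD, n = 3 days; limma's adjusted p = 0.983). This mean hides the change of sign: it was 0.65 without day 1 and -1.36 without day 6.

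Both PGAM2 probes were below 0 on day 1 and above 0 on day 6. Probe 1 (spots 3355 and 3356) scored -2.53 and -3.03 on day 1, -0.83 and 0.79 on day 3 and 2.62 and 0.98 on day 6. Probe 2 (spots 4379 and 4380) scored -1.42 and -1.71, -0.24 and -1.86, and 2.04 and 1.67. The probes differed on day 3, where replicate B had opposite signs, and correlated at 0.74 over the 6 arrays, which they share. Tested as separate features, probe 1 rose from day 1 to day 6 by 4.58 ± 1.00 (SE, limma's adjusted p = 0.0386), where 0.558% of 2688 features passed. With the median of 10 neighbouring probes subtracted from each probe, the gene's change was 3.89 and passed as well (limma's adjusted p = 0.0473). With the replicate letter as a block, which takes up an equal dye effect, the change stayed 4.01 and the adjusted p was 0.173.

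At the level of single spots, 8 of 8 day 1 values of PGAM2 lay below 0, from -3.60 to -0.41, and 8 of 8 day 6 values lay above 0, from 1.01 to 2.69. On day 3, 5 of 8 lay below 0. PGAM2 was 1 of 144 genes with more than 1 probe (0.694%) for which every spot value was below 0 on day 1 and above 0 on day 6, and no gene had the opposite pattern. Genes with more spots meet this less easily; among the 108 genes with exactly 2 probes it was 1 (0.926%). The criterion was chosen after the PGAM2 values had been seen. The GAPDH probe in spots 3353 and 3354, numbered just before PGAM2 probe 1, scored 0.24 and 0.29 on day 1. Whether position on the array bears on the PGAM2 scores was not tested. The neighbours of the PGAM2 probes had medians between -0.28 and 0.11 on the 3 days. The difference between replicates A and B divided by 2 was 0.20 on day 1, -0.01 on day 3 and 0.49 on day 6, smaller than the day means of days 1 and 6.

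**Figure D2:**
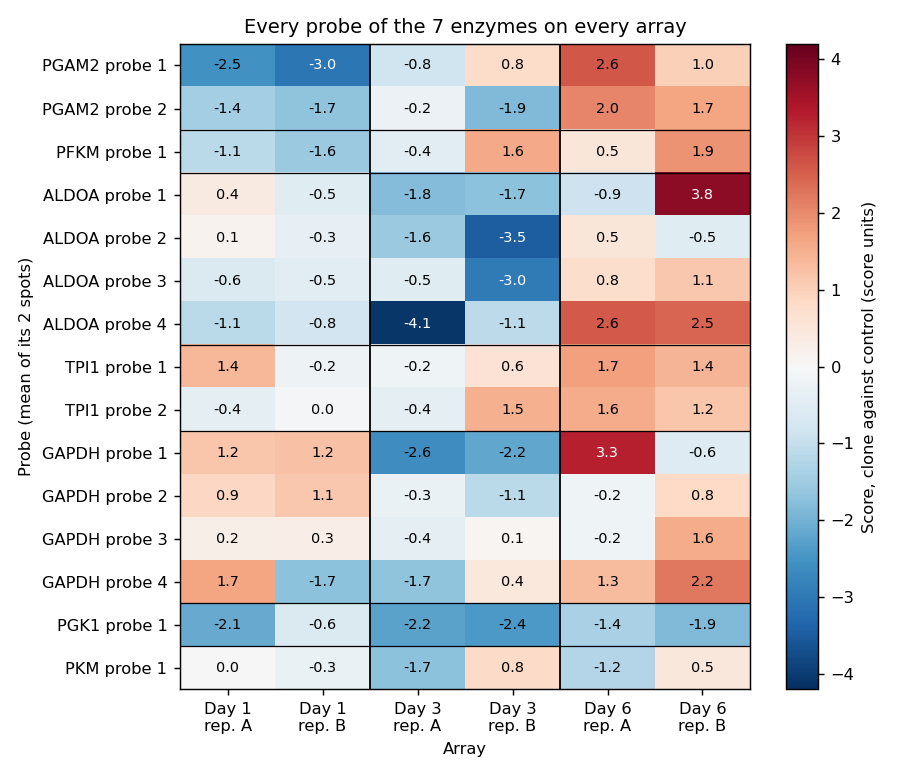
Scores of each of the 15 probes (rows, mean of 2 spots, score units) on each of the 6 arrays (columns), red for higher and blue for lower in the clone. Both PGAM2 probes are below 0 on both day 1 arrays and above 0 on both day 6 arrays, and all 4 ALDOA probes are below 0 on both day 3 arrays.

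PGK1 (Entrez Gene 5230) encodes phosphoglycerate kinase, the first enzyme of glycolysis to make ATP. It scored -2.10 and -0.62 on day 1, -2.25 and -2.41 on day 3 and -1.35 and -1.85 on day 6, so that 6 of 6 arrays were below 0. All 12 spot values were below 0 too, from -2.95 to -0.045, a count not made for all genes. Of all features, 2.88% were below 0 on all 6 arrays. The mean was -1.76 ± 0.51 (SD, n = 3 days; 95% interval of the limma fit -2.69 to -0.83), rank 14 of 2466 from the lowest, with limma's adjusted p = 0.104. Both day 3 arrays lay below the other 4, and the day 1 arrays spanned those of day 6. The score difference was -0.98 from day 1 to day 3 (95% interval -2.92 to 0.97), 0.73 from day 3 to day 6 (-1.21 to 2.68) and -0.24 from day 1 to day 6 (-2.18 to 1.70), and none of these passed (limma's adjusted p = 0.869, 0.890 and 0.964). PGK1 had 1 probe, so no second probe checks it. Probes around it on the array were also low on days 1 and 3, with medians of the 10 neighbours of -0.61 on day 1, -0.95 on day 3 and 0.07 on day 6. With these subtracted PGK1 stood at -0.75, -1.37 and -1.67, with a mean of -1.26 (limma's adjusted p = 0.45), and it was still below 0 on each array. PGAM2 and PGK1 act one after the other in the pathway, and their scores correlated at -0.10 over the 6 arrays.

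**Figure D3:**
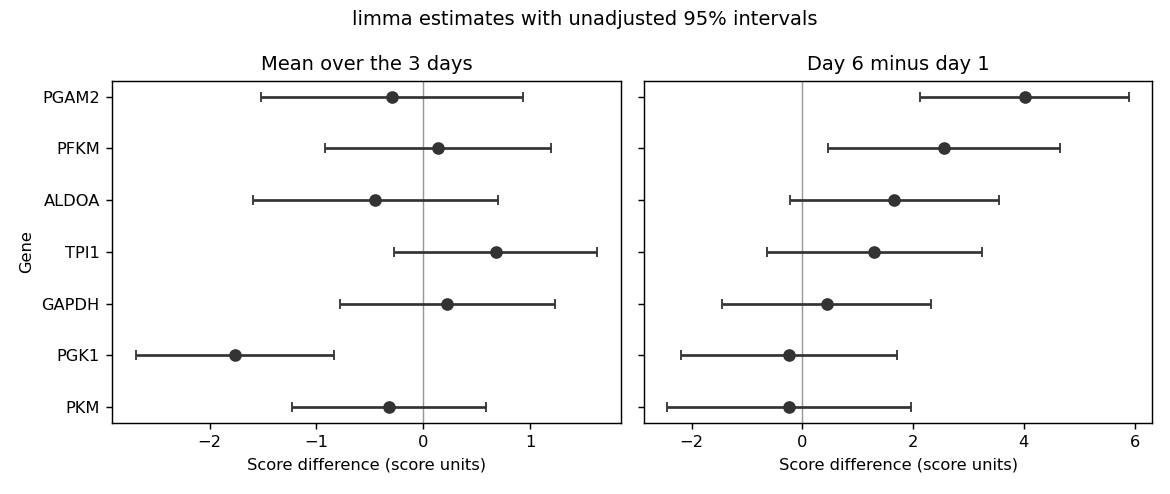
limma estimates (points) with unadjusted 95% intervals (bars) for the 7 enzymes, in score units. Left, mean over the 3 days, where the PGK1 interval of -2.69 to -0.83 lies below 0; right, day 6 minus day 1, where the intervals of PGAM2 and PFKM lie above 0.

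On day 3, PGK1 and ALDOA (Entrez Gene 226) were the members at least 2 units lower on both arrays, 2 of 7, where 0.811% of all features were. With arrays scaled PGK1 alone met this, with neighbours subtracted 0 members did, and by single probes PGK1 and GAPDH did but not ALDOA, none of whose probes was 2 units lower on both arrays. ALDOA encodes the muscle aldolase, which splits fructose 1,6-bisphosphate. It scored -0.31 and -0.53 on day 1, -2.01 and -2.31 on day 3 and 0.75 and 1.73 on day 6. The day 3 arrays lay below and the day 6 arrays above those of day 1. All 16 spot values of day 3 were below 0, from -4.32 to -0.27, a count not made for other genes. Not every array of a probe fell: probe 3 scored -0.61 and -0.47 on day 1 and -0.50 on replicate A of day 3. The means of its 4 probes were -0.07, -0.10, -0.54 and -0.98 on day 1 and -1.77, -2.52, -1.73 and -2.59 on day 3. On day 6 they spread more, at 1.44, -0.0014, 0.94 and 2.52, and probe 1 scored -0.87 on replicate A and 3.75 on replicate B. The 6 correlations between pairs of its probes over the arrays ran from 0.40 to 0.83. The limma fit of day 3, with the array spread as its only error, gave -2.16 ± 0.63 (SE) with an adjusted p of 0.203. The change from day 3 to day 6 was 3.40 ± 0.89 (SE, 95% interval 1.51 to 5.29; limma's adjusted p = 0.175). ALDOA was the member for which all 4 differences between these days' arrays reached 2 units, as they did upward for 1.01% of all features. For ALDOA probe 4 alone the difference was 5.12 between these days (limma's adjusted p = 0.0554).

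GAPDH (Entrez Gene 2597), glyceraldehyde-3-phosphate dehydrogenase, makes NADH in the step before PGK1 and is widely used as a loading control. Its scores were 0.98 and 0.23 on day 1, -1.26 and -0.69 on day 3 and 1.06 and 1.03 on day 6, with the day 3 arrays lowest. The dip of day 3 was uneven between probes. Probe 1 had a day 3 mean of -2.40, while probes 2, 3 and 4 had -0.71, -0.16 and -0.63. The 2 spots of probe 1 differed by 2.70 units on average, against 1.23 for the median probe of the array, and GAPDH probes correlated over the arrays at 0.00079 to 0.56. The change from day 3 to day 6 was 2.02 ± 0.88 (SE, limma's adjusted p = 0.522), and the mean over the days was 0.23 ± 1.06 (SD, n = 3 days; limma's adjusted p = 0.983).

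PFKM (Entrez Gene 5213) encodes the muscle phosphofructokinase, the enzyme that sets the pace of glycolysis. It scored -1.14 and -1.57 on day 1, -0.46 and 1.60 on day 3 and 0.51 and 1.90 on day 6. Days 1 and 6 did not overlap, while the day 3 arrays spanned 0. The change from day 1 to day 6 was 2.56 ± 0.98 (SE, 95% interval 0.47 to 4.65; limma's adjusted p = 0.527). Its 2 spots agreed well, with a mean difference of 0.27 units, and 4 of 4 spot values lay below 0 on day 1 and above 0 on day 6. This count was not made for all genes with 1 probe.

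TPI1 (Entrez Gene 7167), triosephosphate isomerase, turns the second product of the aldolase into the one GAPDH uses. It stood at 0.50 and -0.13 on day 1, -0.29 and 1.06 on day 3 and 1.64 and 1.32 on day 6. Only the day 6 arrays agreed in sign and lay above all others. Its probes had day 6 means of 1.57 and 1.37, with 7 of 8 spot values above 0, a count not made for all genes. The 2 spots of TPI1 probe 1 differed by 1.75 units on average, against 1.23 for the median probe of the array. On replicate A of day 6 they were 3.59 and -0.30. Over the days TPI1 averaged 0.68 ± 0.70 (SD, n = 3 days; limma's adjusted p = 0.869), and its change from day 1 to day 6 was 1.30 (95% interval -0.64 to 3.24). PKM (Entrez Gene 5315), pyruvate kinase, which ends the pathway, scored 0.02 and -0.27 on day 1, -1.75 and 0.80 on day 3 and -1.21 and 0.49 on day 6. On each day its arrays had opposite signs, so the day means of -0.13, -0.48 and -0.36 were smaller than the differences between replicates. The PKM mean over the days was -0.32 ± 0.18 (SD, n = 3 days; limma's adjusted p = 0.983).

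Within single days 0 of the 7 members passed in limma against array spread. The shares of all features that passed were 0.243% on day 1, 0.324% on day 3 and 0.284% on day 6. At an unadjusted p of 0.05 they were 1 member on day 1 (PGAM2), 2 on day 3 (PGK1 and ALDOA) and 3 on day 6 (PGAM2 and TPI1 higher, PGK1 lower), against 6.16%, 9.57% and 11.1% of all features. Between days 0 members passed from day 1 to day 3 (0.162% of features) or from day 3 to day 6 (0.0406%). At an unadjusted p of 0.05 there were 0 and 3 members, the latter PGAM2, ALDOA and GAPDH, against 7.62% and 8.76%. For PGAM2, ALDOA and PFKM both day 1 arrays were below 0 and both day 6 arrays above 0, 3 of 7 members, as they were for 7.66% of all features. By the larger threshold PGAM2 was the 1 member for which all 4 differences between days 1 and 6 reached 2 units upward, as for 0.608% of features. All 4 differences from day 1 to day 6 were above 0 for 5 of 7 members, PGK1 and PKM excepted, against 20.2% of all features, and those from day 3 to day 6 for 5 of 7, PKM and PFKM excepted, against 18.9%. Among the members counted, the lowest such difference was 0.048, for GAPDH from day 1 to day 6. With neighbouring probes subtracted, the PGK1 change from day 3 to day 6 was -0.31. The comparisons with day 6 share its arrays, so they are not independent of each other.

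**Figure D4:**
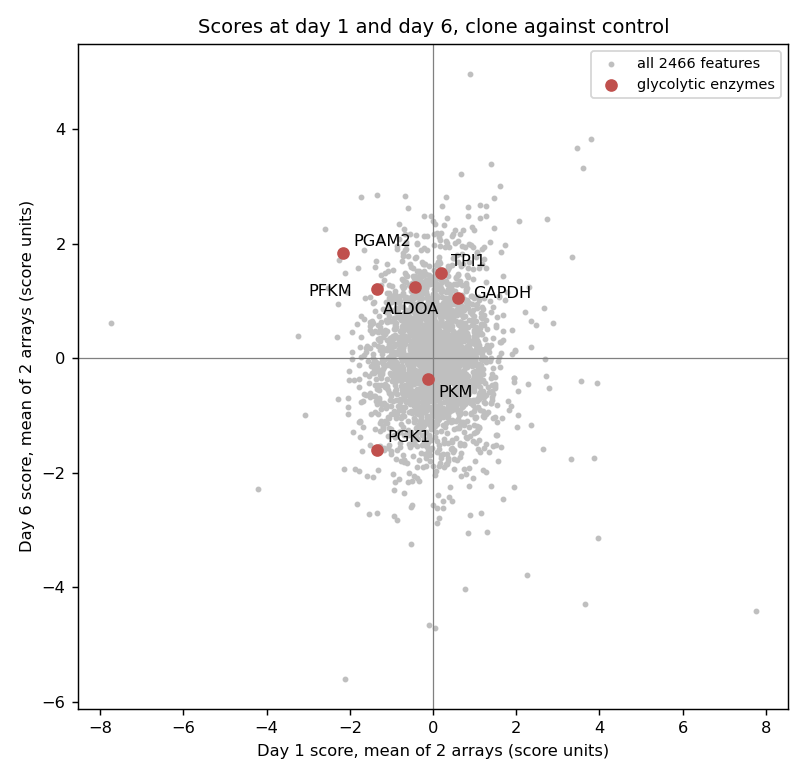
Day 1 score (horizontal axis) and day 6 score (vertical axis) of all 2466 features (grey) and of the 7 enzymes (red), each the mean of a day's 2 arrays in score units. PGAM2 lies at -2.17 and 1.84 near the edge of the cloud, PGK1 is low on both days, and PKM lies near the centre.

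Other genes of the pathway were counted from lists named by function. Of 26 further genes of glycolysis and its control, 5 were measured, and 0 passed in limma in either direction for the mean, a day or a change between days, with 0 at an unadjusted p of 0.05 for the mean or for the change from day 1 to day 6. Their median change from day 1 to day 6 was -0.02, beside 1.30 for the 7 members and 0.0081 for all features. The glucose-6-phosphate isomerase GPI stood at -1.77, 0.20 and -0.37 on days 1, 3 and 6, and LDHB, the heart form of lactate dehydrogenase, at 0.34, 0.56 and 0.35. Replicates differed in sign for GPI on day 3 (1.25 and -0.85) and day 6 (0.46 and -1.20), and for LDHB on day 6 (-1.06 and 1.76). FBP2, the muscle fructose bisphosphatase, averaged -0.26 over the days, and the regulators PFKFB1 and PFKFB4 averaged -0.39 and -0.13. Among 4 measured of 24 glycogen genes 0 passed, 1 was higher on day 6 than on day 1, and the median change was -0.43. That gene was PGM1, which links glycogen to glycolysis, at -1.51 on day 1 and 0.56 on day 6. GYG1, the protein primer of glycogen, stood at -0.39 and -0.87 on these days, GYS1, the muscle glycogen synthase, at 0.70 and 0.32, and the glycogen-targeting phosphatase subunit PPP1R3C at -0.18 and -1.51. On day 6 the replicates had opposite signs for PPP1R3C (-3.48 and 0.45) and GYS1 (0.71 and -0.07).

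Of 24 genes that handle pyruvate and cytosolic NADH, 6 were measured and 0 passed. Their median change from day 1 to day 6 was 1.68, and 3 of the 6 had an unadjusted p under 0.05 for that change, against 8.27% of all features; among the glycogen genes it was 1 of 4 and among the fast-fibre genes described next 3 of 9. The mitochondrial malate dehydrogenase MDH2 went from -0.23 to 2.48 and the pyruvate dehydrogenase kinase PDK2 from -1.37 to 1.25. The aspartate aminotransferases GOT2 and GOT1 went from -1.53 to 0.63 and from -0.30 to 0.90. MDH1, the cytosolic malate dehydrogenase, and GPD1 went the other way, from 1.65 to 0.08 and from 0.81 to -0.0028. Their day 6 arrays had opposite signs, at -1.73 and 1.89 for MDH1 and 0.59 and -0.59 for GPD1. On day 1 the arrays had opposite signs for MDH2 (-1.04 and 0.59), GOT1 (0.10 and -0.70) and GPD1 (-0.35 and 1.98). Those of PDK2 stood at -2.44 and -0.30 on that day. Of 16 citrate cycle genes, 4 were measured and 0 passed, with a median change of 0.19; SDHA, a subunit of succinate dehydrogenase, averaged 0.80 and SUCLG1 0.51, while IDH2 averaged -0.35 and OGDH -0.01.

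Genes of fast and slow muscle fibres were set beside the members, since fast fibres are rich in glycolytic enzymes. Of 9 measured fast-fibre genes of 14, 8 had a higher score on day 6 than on day 1, with a median change of 0.79, and 0 passed; of all features, 1243 of 2466 were higher on day 6. The largest score differences over these days were those of the troponins TNNI2 and TNNT3, at 3.37 and 2.08, beside 4.01 for PGAM2. The other fast-fibre genes ran from -0.50 for MYBPC2 to 1.89 for ACTN3. By mean over the days ACTN3, the fast-fibre actinin, and the myosin MYH2 were highest at 0.29 and 0.079, and the adenylate kinase AK1 and the myosin MYH1 were lowest at -1.48 and -0.75. Of the 9 measured of 10 slow-fibre genes, 5 were higher on day 6 than on day 1, with a median change of 0.28. Their changes ran from -2.71 for MB to 1.80 for TNNT1. Of these 9, the slow myosin MYH7 passed on day 3 (limma's adjusted p = 0.0145), at -3.66. It was lowest of them by mean, at -1.23, before MYBPC1 at -0.84, while the calcium pump ATP2A2 and the troponin TNNT1 were highest at 0.30 and 0.17. Of 19 markers of smooth muscle, fat, bone, cartilage and fibroblasts, 5 were measured, 2 of them higher on day 6 than on day 1, with day medians of -0.18, -0.33 and -0.53. The part of the fibre genes and of these markers in the scores of the enzymes was not tested.

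The genes most like PGAM2 were sought among 856 named genes whose SD over the arrays was at least 0.5 times its own, by Pearson's correlation over the 6 arrays. The 5 highest were RGL2 (0.99), SMIM3 (0.97), POLR2I (0.97), BOLA1 (0.96) and ECI2 (0.96). Of these RGL2 and ECI2 stood at -1.67 and -1.72 on day 1 and at 0.68 and 0.74 on day 6. SMIM3, POLR2I and BOLA1 stood at -0.71, -0.65 and -0.14 on day 1 and at 1.84, 2.03 and 1.89 on day 6. Within the pathway TPI1 (0.79), PFKM (0.71) and ALDOA (0.53) were most like PGAM2. For PGK1, among 1501 genes, they were KCNJ12 (0.97), ZCWPW1 (0.94), NAXD (0.94), EFTUD2 (0.92) and TMEM164 (0.92). Of these KCNJ12 and EFTUD2 had day means below 0 on all 3 days, as PGK1 did, at -0.063, -0.73 and -0.25 and at -0.46, -2.76 and -0.33 on days 1, 3 and 6. The others were above 0 on at least 1 day; ZCWPW1 stood at 0.58, -0.30 and 0.75, NAXD at 1.40, -0.71 and 0.81 and TMEM164 at 0.99, -0.85 and -0.038. With 6 arrays of 3 days and many genes compared, high values are easily reached, and they are given as a description.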

How the data were processed

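RNA was purified with Trizol, reverse transcribed, labelled with a MICROMAX TSA kit and hybridised to a muscle array for human genes, per the labels' protocols. The deposited values are 1 score per spot; the authors' filtering, normalisation and scaling are not given in the sources used here. They were not read as log ratios, since 2 of them exceed 16 in size, more than a 16-bit scanner can give on a log scale to base 2. There were 0 missing values.

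Members were found by gene symbol in GEO's platform annotation. Members, gene lists, tests and alternatives were chosen with earlier results of these data known. The 2 spots of a probe and then a gene's probes were averaged, so genes with more probes have less noise. Arrays were centred on the median. For the mean over the 3 days, limma 3.58.1 (R 4.3.3) tested an intercept against 0 on day means. Days and changes between days were tested on the 6 arrays with a coefficient for each day, so that the error is array spread only. Tests were two-sided, adjusted by Benjamini-Hochberg over 2466 features, with a threshold of 0.05. The size threshold of 2 units, on both arrays or for all 4 differences, was chosen from the distribution of scores. The fits were tested on simulated data with planted changes. Replicate letters mark dye orientation, and deviations of arrays with the same letter correlated at -0.04 to -0.0018, so they were not taken as pairs.

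Genes named are all members, their isoforms, the 2 highest and 2 lowest of each pathway list by mean and those that passed. The 5 genes most like PGAM2 and PGK1 are named too. FBP2, MDH1, GPD1, TNNI2, TNNT3, MYBPC2, MB and MYOD1 were added outside this rule after their values were seen. Alternatives were values as deposited, scaling by median absolute values, separate probes, named genes only, a robust prior (statmod 1.5.0), subtraction of 10 neighbouring probes (even places from 2 to 10 on either side), 6 separate arrays, the dye block, other size thresholds, and leaving out arrays or days. Motifs were searched in RefSeq's mouse promoter table, GRCm38.p6. Plots used matplotlib 3.10.9 in Python 3.11.15.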

Additional observations from a re-analysis of the deposited data

Results flagged for a closer look

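Scores with opposite signs on both arrays of 2 days were looked up for each enzyme. Against the spread between dye-swapped arrays none of the gene-level changes given here passed in limma on centred scores (the PGAM2 change from day 1 to day 6 passed with neighbouring probes subtracted, at 3.89 and an adjusted p of 0.0473), and with 1 RNA pair a day they were not tested against the spread between cultures. PGAM2 changed sign between days 1 and 6 (4.01) and between days 3 and 6 (2.38). ALDOA did so between days 1 and 6 (1.66) and between days 3 and 6 (3.40). GAPDH went from above to below 0 between days 1 and 3 (-1.58) and back between days 3 and 6 (2.02), and PFKM changed sign between days 1 and 6 (2.56). PGAM2 probe 1 as a feature of its own changed by 4.58 from day 1 to day 6, a difference between days that passed in limma (adjusted p = 0.0386).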

How the results depend on the processing

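The values came from 1 RNA pair a day, and signal over background was not analysed here, so dim probes could not be set apart. Of 665 alternative values of single members, 632 kept their direction and side of the threshold, 2 newly passed (the PGAM2 change from day 1 to day 6 with separate probes, by its probe 1, and with neighbours subtracted) and 31 changed sign, none of them a called value; where a cause is not given, the cause was not tested.

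The fits called 9 features for the mean, 6, 8 and 7 on days 1, 3 and 6, 4 from day 1 to 3, 1 from day 3 to 6 and 9 from day 1 to 6; past 2 units lay 20, 31 and 45 on the days and 35, 50 and 45 for these changes. With arrays scaled, 11 were called on day 1 and 4 on day 6, and 1 member was past 2 units on day 1 (PGAM2) and 1 on day 3 (PGK1). With separate probes, 15 were called on day 3, 13 on day 6, 4 from day 3 to 6 and 15 from day 1 to 6, with 1 member (PGAM2); past 2 units was 1 member on day 1, on day 6 and from day 1 to 3, and 2 from day 1 to 6. With named genes only, 4 were called for the mean and 4 on day 6, and 8 and 20 were past 2 units on days 1 and 6 and 21, 31 and 26 for the changes, fewer features being tested. With a robust prior, 11 were called on day 1, 16 on day 3 and 12 from day 3 to 6. With neighbours subtracted, 4 were called for the mean, 19 on day 3, 17 on day 6, 2 from day 3 to 6 and 14 from day 1 to 6, with 1 member (PGAM2), and 0 members were past 2 units on day 3. With the replicate block (the dye term), 5 were called for the mean, 2, 4 and 1 on the days, and 2, 0 and 5 for the changes. It called 0 members, as did the fits without any alternative setting. Without day 1 the mean had 29 calls, without day 3 it had 0 and without day 6 it had 0.

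At 1 unit, 177, 204 and 268 features passed on the days and 226, 232 and 233 for the changes, with 2 members on day 1, 4 on day 6 and 2, 3 and 3 for the changes. At 1.5 units these were 46, 79, 113, 95, 113 and 107, with 1 member on day 1, 3 from day 3 to 6 and 2 from day 1 to 6. At 3 units they were 8, 7, 7, 5, 15 and 15, with 0 members on day 3 and 0 from day 3 to 6.

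Leaving out 1 array at a time, 0 to 8 features were called for the mean, 0 to 10, 4 to 11 and 0 to 20 on the days, and 0 to 4, 1 to 7 and 0 to 28 for the changes, with 0 members throughout. With 1 array left in a day, that array is assumed to vary like the others and the size threshold is easier to pass: 20 to 154, 31 to 216 and 45 to 249 features passed 2 units on the days and 35 to 195, 50 to 224 and 45 to 215 for the changes, with 0 to 1, 2 to 2 and 0 to 1 members on the days and 0 to 1, 1 to 2 and 1 to 3 for the changes.

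With neighbours subtracted the sign turned for PFKM in the mean (-0.012), TPI1 on days 1 (-0.16) and 3 (-0.013), PKM on days 1 (0.70) and 3 (0.045), and PGK1 (-0.31) and PKM (-1.04) from day 3 to 6. In the mean it turned without day 1 for PGAM2 (0.65), without day 3 for ALDOA (0.41) and PFKM (-0.074), and without day 6 for GAPDH (-0.18) and PFKM (-0.39). Over the left-out arrays the sign turned for PKM in the mean (-0.75 to 0.10), on day 1 (-0.27 to 0.017), day 3 (-1.75 to 0.80) and day 6 (-1.21 to 0.49) and in its changes from day 1 to 3 (-1.63 to 0.93), 3 to 6 (-1.16 to 1.39) and 1 to 6 (-1.08 to 0.62). It turned for PFKM in the mean (-0.20 to 0.48), on day 3 (-0.46 to 1.60) and from day 3 to 6 (-0.39 to 1.67), for TPI1 on day 1 (-0.13 to 0.50), day 3 (-0.29 to 1.06) and from day 1 to 3 (-0.47 to 0.88), and for PGK1 from day 1 to 6 (-0.98 to 0.50).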
